A study of Gossypium hirsutum with 6 samples.

Results

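The distal end of chromosome D05 of upland cotton (Gossypium hirsutum) holds 136 genes that are expressed in these roots, out of 275 identifiers there and 81166 identifiers in the whole table. Members are the D05 identifiers numbered from D05G366400 upward, selected on a level of at least 1 FPKM in 3 or more of the 6 libraries. FPKM counts the fragments of a gene per length of transcript and per mapped fragments in a library, so levels can be compared between genes. The highest gene number on D05 is 389301, and numbers are taken here to follow the position along the chromosome. This end of D05 was itself chosen by its measured differences between the groups, namely by its density of 2-fold calls, so every PS-COOH against CK value below describes the members and tests nothing about them.

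Libraries were made from roots grown with 300 mg/l PS-COOH (carboxyl-modified polystyrene, by its usual reading) for 9 days and from control roots, called CK, grown with 0 mg/l for the same 9 days. There were 3 PS-COOH and 3 CK libraries of 150-bp paired reads. The labels used here do not state whether replicate libraries stem from separate plants or cultures, so their spread may be technical. They name no cultivar or seed lot for either group, so it is not known whether PS-COOH and CK plants shared one, and the exposure and any such difference between the groups cannot be told apart here. Since no identifier could be paired with a gene name, neither the root identity of the tissue nor the function of any member could be checked.

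Upland cotton is an allotetraploid, which carries an A and a D subgenome that came together from different ancestral species, and D05 belongs to the D subgenome. Many of its genes therefore exist as an A and a D copy of similar sequence. Plant chromosome arms carry most of their genes toward the ends, and neighbours there can include tandem copies. Reads of near-identical copies cannot be told apart where they match several genes, and no gene sequence was used here, so the level of a single copy is uncertain wherever such copies exist.

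In PS-COOH roots the members near the start of this end of D05 differed from CK in both directions, and several were close to silent in 1 group only. A gene is said to be called higher or lower where a limma fit over all 45258 expressed identifiers gave a Benjamini-Hochberg adjusted p under 0.05. Of the 136 members, 35 were called higher (25.7%) and 33 lower (24.3%) in PS-COOH. Among all expressed identifiers 15.7% were called higher and 15.1% lower, and on the rest of D05, with 2327 expressed identifiers, 14.7% and 16.8%. The other 68 members were not called, while calls in either direction made up 30.8% of all expressed identifiers and 31.5% of the rest of D05. In bulk tissue, fewer cells of a type and less RNA per cell cannot be told apart.

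Large differences went both ways. Differences are given as PS-COOH minus CK in mean log2(FPKM + 1), with limma's standard error, and a called difference of at least 1 in size is described as 2-fold. The added 1 shrinks the differences of genes with low FPKM. Means can therefore be over 2-fold apart in a member that is not described as 2-fold. There were 13 members called higher at least 2-fold (9.56%) and 13 called lower at least 2-fold (9.56%). The shares were 1.86% and 0.572% among all expressed identifiers, and 1.5% and 0.301% on the rest of D05. Together they were 26 members (19.1%), against 2.43% of all expressed identifiers and 1.8% of the rest of D05. Of the 26, 10 had a mean under 0.5 FPKM in PS-COOH and 4 in CK. Every library of that group was under 1 FPKM, so these passed the FPKM rule only through the other group. With a filter of 5 FPKM in 3 libraries only 74 members were left, of which 6 were higher and 3 lower at least 2-fold. Over all 136 members, adding 0.5 in place of 1 gave 17 higher and 13 lower at least 2-fold, and adding 0.1 gave 18 and 14. The 3 PS-COOH values lay all above or all below the 3 CK values in 75 members (55.1%), against 44.5% of all expressed identifiers and 46.2% of the rest of D05. In members with every library of 1 group under 1 FPKM, the FPKM rule itself fixes this. That covers at least 15 of the 75, and the background shares were taken under the same rule.

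**Figure D1:**
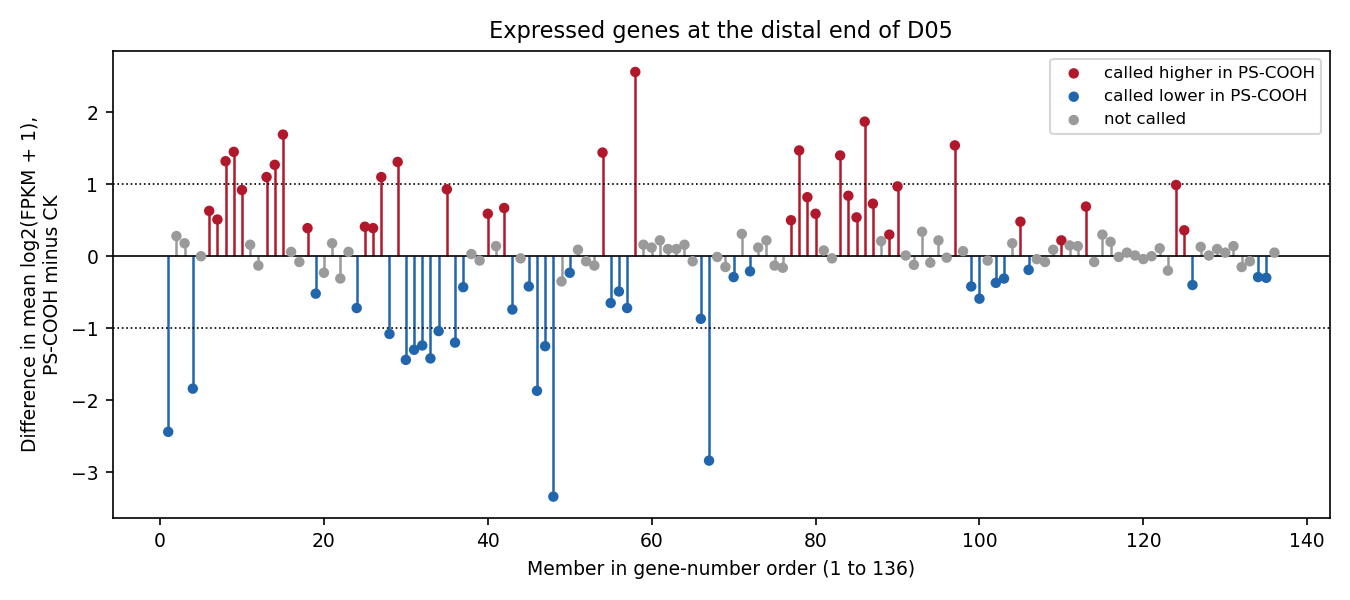
Difference in mean log2(FPKM + 1), PS-COOH minus CK, for the 136 members in gene-number order. Red and blue points are members called higher and lower in PS-COOH, grey points were not called, and dotted lines mark a difference of 1 in either direction. The differences run from -3.34 to 2.56, and the last one of at least 1 in size is that of member 97.

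The rest of D05 was divided into 17 windows of 136 expressed identifiers each, counted back from the member of lowest number. These windows held 0 to 7 identifiers called at least 2-fold, with a median of 2, where the distal end held 26. The window directly before it held the 7. Group means at least 10-fold apart occurred in 13 members and in 0 or 1 identifier of each window. Calls of any size were less far apart, with 68 members against 27 to 55 identifiers per window. Groups that did not overlap were found in 75 members, barely more than the 54 to 74 identifiers per window. The FPKM rule fixes part of the 75, as said above.

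**Figure D2:**
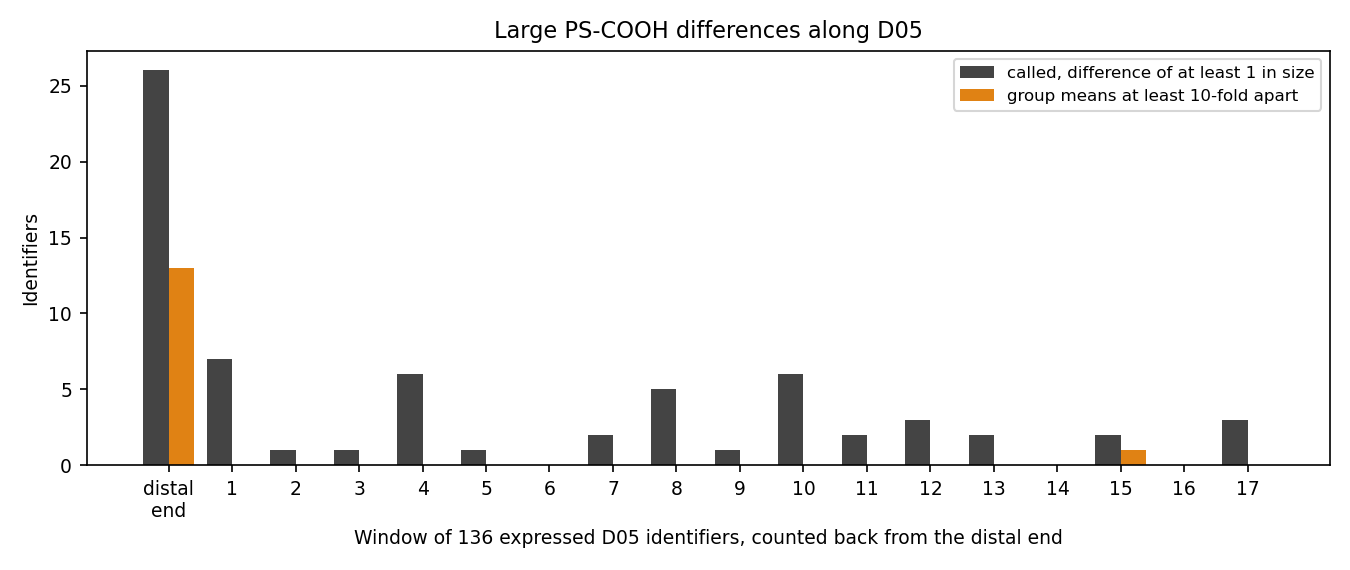
Number of identifiers with large differences between PS-COOH and CK in the distal end of D05, at left, and in 17 windows of the same number of expressed D05 identifiers, counted back from it. Dark bars count identifiers called with a difference of at least 1 in size and orange bars count group means at least 10-fold apart. The distal end reaches 26 and 13, and no window exceeds 7 and 1.

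The differences thinned out toward the chromosome's last gene number. In the first part, from D05G366400 to D05G369900, 8 of 27 members were called at least 2-fold, and in the second, from D05G370300 to D05G374900, 13 of 36. The count was 4 of 23 from D05G375000 to D05G379900, 1 of 21 from D05G380000 to D05G384900 and 0 of 29 from D05G385000 to D05G389001. These 5 parts begin and end at round gene numbers. Calls of at least 2-fold made up 2.43% of all expressed identifiers and 1.8% of the rest of D05. The last member called at least 2-fold was D05G383500. After it came 39 members, of which 5 were called higher, 8 lower and 26 not at all. The 13 calls are 33.3% of these members, close to the 30.8% of all expressed identifiers and the 31.5% of the rest of D05. This cut was placed by the calls themselves, so the lack of 2-fold calls after it was fixed in advance.

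**Figure D3:**
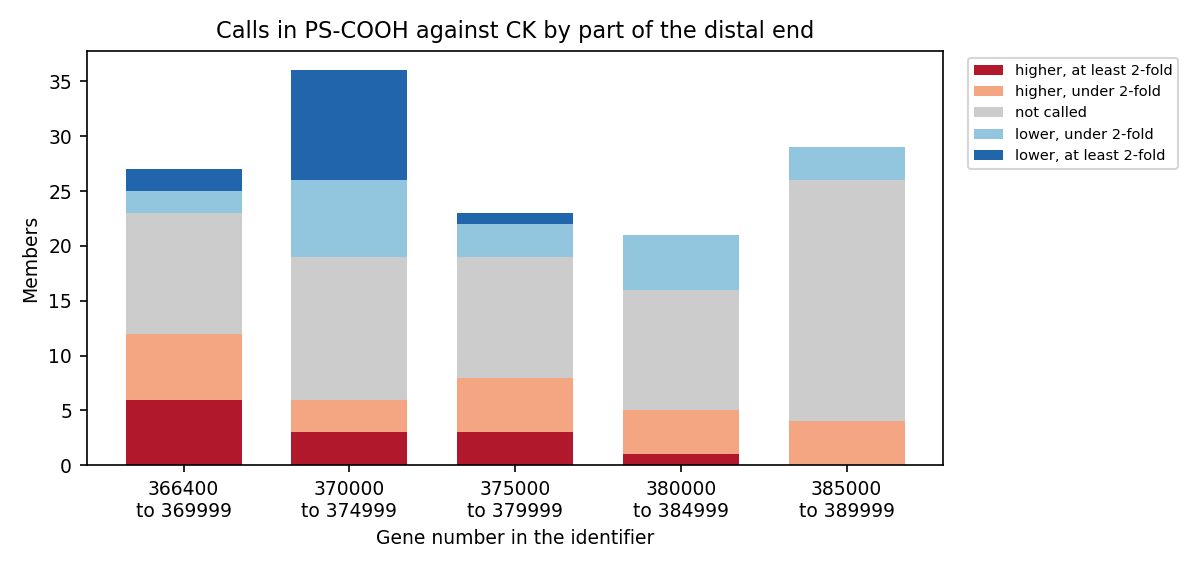
Members by call in PS-COOH against CK in 5 parts of the distal end, by the gene number in the identifier. From the second part on, counts at least 2-fold on the log2(FPKM + 1) scale drop from 13 to 4, 1 and 0. In the last part 22 of 29 members were not called.

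Median levels were similar in the distal end and on the rest of D05, while very low and very high levels were more frequent in the distal end. The members had a median of 5.11 FPKM over the 6 libraries, against 5.44 on the rest of D05 and 4.85 over all expressed identifiers. Members under 2 FPKM were 25.7%, against 18.3% on the rest of D05. Libraries of a group agreed about as closely among members as elsewhere, with a median within-group SD of 0.118 on the log2(FPKM + 1) scale, against 0.114 on the rest of D05. Large differences occurred at low and at moderate levels. They were found in 13 of the 35 members under 2 FPKM, 4 of 29 between 2 and 5 FPKM, 6 of 33 between 5 and 10 FPKM, 2 of 34 between 10 and 100 FPKM and 1 of the 5 members at 100 FPKM or more. On the rest of D05 the corresponding shares lay between 0% and 1.95%.

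Near silence in 1 group was found in 15 members. A member is called near silent where its mean was under 0.5 FPKM in 1 group and at least 1 FPKM in the other. Where all 3 libraries of 1 group lie under 1 FPKM, the FPKM rule admits only genes with at least 1 FPKM in all 3 others. In such members the rule itself fixes that the groups do not overlap. This held for 10 members in PS-COOH (7.35%), against 0.239% of all expressed identifiers and 0.129% of the rest of D05. It held for 5 members in CK (3.68%), against 0.442% and 0.215%. Of the 10, 8 were listed at 0 in at least 1 PS-COOH library, and none was at 0 in all 3. Means were at least 10-fold lower in PS-COOH in 10 members (7.35%), against 0.104% of all expressed identifiers and 0.043% of the rest of D05. They were at least 10-fold higher in 3 members (2.21%), against 0.108% of all expressed identifiers and 0 of 2327 on the rest of D05. By library, 10, 8 and 9 members lay under 0.1 FPKM in PS-COOH and 2 in each CK library. Those 2 were D05G370333 and D05G373700 in CK replicates 1 and 2, and D05G369900 and D05G373700 in CK replicate 3.

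**Figure D4:**
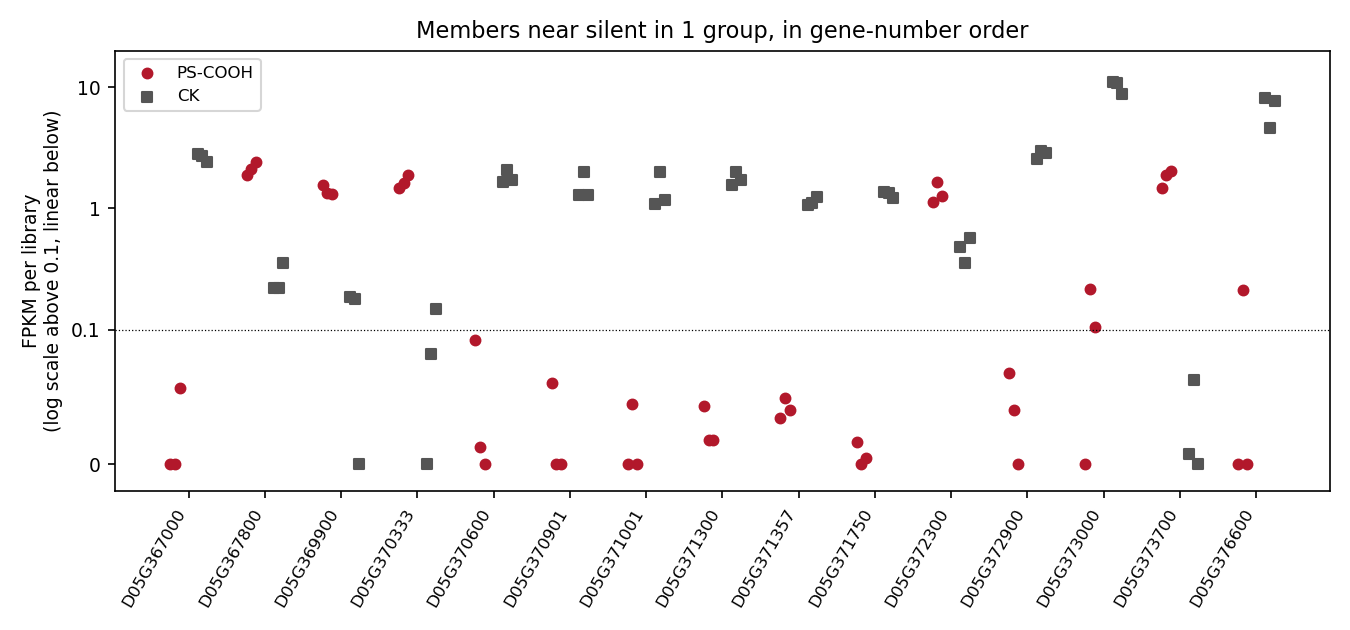
FPKM of the 15 near-silent members in each library, PS-COOH (red circles) beside CK (grey squares), in gene-number order. The axis is logarithmic above 0.1 FPKM and linear below it. In 10 members the PS-COOH values lie near 0 and every CK value is above 1 FPKM, and in 5 members every PS-COOH value is above 1 FPKM and the CK values are low.

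In number order, the first member was the most abundant of all. D05G366400, in full Gohir.D05G366400.v2.1 (the members share this prefix and suffix), had 488, 527 and 569 FPKM in PS-COOH and 2966, 2768 and 2877 FPKM in CK. The PS-COOH libraries were all far below the CK libraries, with a difference of -2.44 ± 0.054 and a CK mean 5.44 times the PS-COOH mean. D05G366500, next in order, had 1.27, 0.843 and 1.26 FPKM in PS-COOH and 0.663, 0.449 and 1.18 FPKM in CK. D05G366600 had 7.38, 8.36 and 10.6 FPKM in PS-COOH and 7.55, 7.85 and 7.29 FPKM in CK. In both the groups overlapped, and neither was called. Just before the number threshold, D05G366350 was called higher, with 3.72, 4.66 and 5.16 FPKM in PS-COOH and 2.03, 1.74 and 2.27 FPKM in CK. D05G366300 had 19.2, 20.2 and 20.2 FPKM in PS-COOH and 22.4, 22.1 and 22.4 FPKM in CK and was not called. D05G366000, with 2.71, 1.94 and 2.12 FPKM in PS-COOH and 2.15, 2.44 and 2.70 FPKM in CK, was not called either.

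D05G367000 was nearly absent from PS-COOH roots. It had 0, 0 and 0.0566 FPKM in PS-COOH and 2.83, 2.69 and 2.42 FPKM in CK, a difference of -1.84 ± 0.13. Its neighbour D05G367400 had almost the same level in both groups, 12.4, 11.5 and 11.5 FPKM in PS-COOH and 11.8, 11.3 and 12.3 FPKM in CK.

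A stretch of members that were higher in PS-COOH followed. The 5 members from D05G367500 to D05G367900 were all called higher, and their FPKM summed to 79.3 ± 1.91 in PS-COOH and 47.0 ± 3.46 in CK (SD, n = 3 each). The most abundant of them, D05G367500, had 63.2, 66.2 and 62.9 FPKM in PS-COOH and 40.6, 38.0 and 45.2 FPKM in CK. Means here and below are given ± SD over the 3 libraries of each group. D05G367700 averaged 4.37 ± 0.0944 FPKM in PS-COOH and 2.76 ± 0.0830 FPKM in CK. D05G367900 averaged 3.57 ± 0.429 FPKM in PS-COOH and 1.41 ± 0.0922 FPKM in CK. The other 2 were called at least 2-fold. D05G367800 was near silent in CK, with 1.90, 2.13 and 2.42 FPKM in PS-COOH and 0.222, 0.221 and 0.354 FPKM in CK (difference 1.32 ± 0.13). D05G367850 had 4.56, 5.41 and 5.19 FPKM in PS-COOH and 1.86, 1.13 and 0.798 FPKM in CK (difference 1.45 ± 0.16). In both, the lowest PS-COOH value was above the highest CK value, which the FPKM rule already requires in D05G367800.

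After 2 members that were not called, D05G367942 and D05G367984, 3 more neighbours among the members were called higher at least 2-fold. Between the first and last of these 3 lay 2 identifiers that are not members. D05G368068 had 3.05, 2.54 and 2.86 FPKM in PS-COOH and 0.513, 1.38 and 0.548 FPKM in CK, a difference of 1.10 ± 0.17. D05G368110 had 4.66, 5.16 and 4.76 FPKM in PS-COOH and 1.80, 1.39 and 1.14 FPKM in CK, a difference of 1.27 ± 0.12. D05G368250 was the highest of the 3, with 11.2, 8.94 and 10.4 FPKM in PS-COOH and 2.28, 2.50 and 2.59 FPKM in CK and a difference of 1.69 ± 0.10. Their PS-COOH values lay well above their CK values in every library, and the sum over the 3 was 17.9 ± 1.14 FPKM in PS-COOH and 4.71 ± 0.508 FPKM in CK.

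From D05G368351 to D05G369900 the directions were mixed, and only D05G369900 was called at least 2-fold. D05G368600 had 1.42, 1.04 and 1.32 FPKM in PS-COOH and 0.663, 0.678 and 0.843 FPKM in CK and was called higher. D05G368900 averaged 0.833 ± 0.245 FPKM in PS-COOH and 1.64 ± 0.422 FPKM in CK and was called lower. The same call was made for D05G369400, at 5.93 ± 0.467 FPKM in PS-COOH and 10.4 ± 0.526 FPKM in CK. D05G369600, D05G369700 and D05G369900, neighbours among the members, were all called higher. D05G369600 averaged 14.8 ± 0.659 FPKM in PS-COOH and 10.9 ± 1.09 FPKM in CK. D05G369700 averaged 2.07 ± 0.232 FPKM in PS-COOH and 1.35 ± 0.252 FPKM in CK. D05G369900 was near silent in CK, where 1 library was listed at 0, with 1.55, 1.33 and 1.31 FPKM in PS-COOH and 0.185, 0.178 and 0 FPKM in CK and a difference of 1.10 ± 0.14. In this first part of the distal end 11 of 27 members were not called, with means of 0.943 to 36.1 FPKM over the 6 libraries and differences of -0.31 to 0.28.

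The second part held 8 of the 10 members near silent in PS-COOH. It opened with D05G370300, which kept part of its level, at 1.44, 0.805 and 0.886 FPKM in PS-COOH and 2.85, 3.78 and 3.30 FPKM in CK (difference -1.08 ± 0.15). D05G370333 went the other way and was near silent in CK, with 1.47, 1.64 and 1.90 FPKM in PS-COOH and 0, 0.0817 and 0.148 FPKM in CK (difference 1.31 ± 0.13).

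Then came 5 neighbouring members that were all close to 0 in PS-COOH. D05G370600 had 0.0925, 0.0129 and 0 FPKM in PS-COOH and 1.66, 2.06 and 1.73 FPKM in CK. D05G370901 had 0.0604, 0 and 0 FPKM in PS-COOH and 1.30, 2.01 and 1.28 FPKM in CK. D05G371001 had 0, 0.0448 and 0 FPKM in PS-COOH and 1.10, 2.01 and 1.18 FPKM in CK. In these, at least 1 PS-COOH library was listed at 0. No CK library fell below 1 FPKM, which the FPKM rule requires of members this low in PS-COOH. D05G371300 had 0.0437, 0.0183 and 0.0178 FPKM in PS-COOH and 1.55, 2.01 and 1.70 FPKM in CK. D05G371357 had 0.0345, 0.0496 and 0.0405 FPKM in PS-COOH and 1.07, 1.10 and 1.25 FPKM in CK. Both kept traces in each PS-COOH library. The 5 differences lay between -1.44 and -1.04, and the 5 genes summed to 0.138 ± 0.0871 FPKM in PS-COOH and 7.67 ± 1.34 FPKM in CK. Within the same stretch, 5 identifiers did not pass the FPKM rule. One of them, singled out after its values were seen, was D05G371100, with 0.0169, 0.0157 and 0.0176 FPKM in PS-COOH and 0.837, 0.922 and 0.897 FPKM in CK, so it stayed under the threshold while lying apart in the same direction.

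The next member, D05G371642, broke this row. It averaged 1.90 ± 0.246 FPKM in PS-COOH and 0.527 ± 0.174 FPKM in CK and was called higher. D05G371750 was again close to 0 in PS-COOH, with 0.0168, 0 and 0.00449 FPKM in PS-COOH and 1.37, 1.33 and 1.22 FPKM in CK and a difference of -1.20 ± 0.13.

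None of the members from D05G371800 to D05G372700 was called at least 2-fold. D05G371800 averaged 20.6 ± 1.41 FPKM in PS-COOH and 28.0 ± 1.05 FPKM in CK and was called lower. D05G371900 and D05G372000 were not called. D05G372100, at 4.83 ± 0.423 FPKM in PS-COOH and 2.87 ± 0.408 FPKM in CK, was called higher. D05G372300 counted as near silent in CK only just, with 1.13, 1.66 and 1.26 FPKM in PS-COOH and 0.482, 0.358 and 0.566 FPKM in CK. Its difference of 0.67 ± 0.14 was under 1, while its PS-COOH mean was 2.88 times its CK mean. D05G372500 was called lower, at 7.92 ± 0.607 FPKM in PS-COOH and 13.9 ± 1.41 FPKM in CK. D05G372700 was too, at 10.8 ± 1.15 FPKM in PS-COOH and 14.8 ± 0.327 FPKM in CK. Between them, D05G372600 had one of the most even levels of the distal end, 15.6, 17.0 and 18.1 FPKM in PS-COOH and 17.7, 16.7 and 17.3 FPKM in CK, and the groups overlapped.

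D05G372700 was also the first of 4 neighbouring members called lower, which summed to 14.1 ± 1.22 FPKM in PS-COOH and 36.7 ± 1.35 FPKM in CK. Between the first and last of the 4 lay 2 identifiers that are not members. The other 3 members were called at least 2-fold. D05G372900 had 0.0678, 0.0407 and 0 FPKM in PS-COOH and 2.55, 2.97 and 2.88 FPKM in CK (difference -1.87 ± 0.13). D05G372950 stayed expressed, with 3.19, 2.81 and 3.46 FPKM in PS-COOH and 7.74, 9.58 and 9.47 FPKM in CK (difference -1.25 ± 0.11). D05G373000 had the most negative difference of all members, -3.34 ± 0.13, with 0, 0.218 and 0.105 FPKM in PS-COOH and 10.9, 10.7 and 8.87 FPKM in CK. These 3 neighbours thus ranged from a partial reduction to near absence in PS-COOH.

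After D05G373000, D05G373300 was called lower with a smaller gap, 13.8 ± 0.930 FPKM in PS-COOH and 16.4 ± 1.28 FPKM in CK, and 4 others up to D05G373600 were not called. D05G373700 was the member with the widest gap among those near silent in CK, with 1.47, 1.87 and 2.03 FPKM in PS-COOH and 0.00750, 0.0626 and 0 FPKM in CK and a difference of 1.44 ± 0.14. It was followed at once by 3 members called lower under 2-fold. D05G373750 averaged 4.68 ± 0.573 FPKM in PS-COOH and 7.93 ± 1.08 FPKM in CK. D05G373901 averaged 3.64 ± 0.640 FPKM in PS-COOH and 5.52 ± 0.948 FPKM in CK. D05G374000 had 32.4, 28.0 and 33.3 FPKM in PS-COOH and 54.6, 49.0 and 52.5 FPKM in CK, a difference of -0.72 ± 0.070. The next member, D05G374100, had the most positive difference of all, 2.56 ± 0.055. It had 139, 144 and 146 FPKM in PS-COOH and 25.04, 23.1 and 22.2 FPKM in CK, so its PS-COOH mean was 6.11 times its CK mean. Opposite directions therefore stood side by side here in well expressed genes. In this part 13 of 36 members were not called, with means of 1.44 to 21.5 FPKM and differences of -0.35 to 0.22.

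In the third part D05G375500 averaged 2.97 ± 0.393 FPKM in PS-COOH and 6.27 ± 0.901 FPKM in CK and was called lower. D05G376600 was the last member near silent in PS-COOH. It had 0, 0.212 and 0 FPKM in PS-COOH and 8.14, 4.58 and 7.72 FPKM in CK, a difference of -2.84 ± 0.18. Every CK library was above 4 FPKM, and 2 of the 3 PS-COOH libraries were listed at 0. D05G377000, nearby, had close to equal means, with 14.9, 13.8 and 15.4 FPKM in PS-COOH and 13.5, 16.7 and 14.5 FPKM in CK. D05G377600, at 22.4 ± 1.79 FPKM in PS-COOH and 27.6 ± 0.441 FPKM in CK, was called lower by a small amount. So was D05G378000, at 36.8 ± 2.29 FPKM in PS-COOH and 42.6 ± 1.66 FPKM in CK.

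From D05G378500 on, calls were mostly higher. D05G378500 averaged 5.77 ± 0.0681 FPKM in PS-COOH and 3.85 ± 0.853 FPKM in CK. D05G378800 was called higher at least 2-fold, with 10.9, 11.2 and 11.4 FPKM in PS-COOH and 3.26, 3.63 and 3.27 FPKM in CK and a difference of 1.47 ± 0.086. D05G379301 averaged 9.58 ± 1.25 FPKM in PS-COOH and 5.99 ± 0.580 FPKM in CK. Together with D05G379200, which comes before D05G379301, these formed a row of 4 members called higher. Between the first and last of them lay 7 identifiers that are not members.

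The 9 neighbouring identifiers from D05G379200 to D05G380000 include 4 of the 5 members at 100 FPKM or more, and all 9 passed the FPKM rule. This group was singled out after its values were seen. Their FPKM summed to 3023, 3158 and 2937 in the PS-COOH libraries and to 2061, 1811 and 1818 in the CK libraries. Of the 9, 7 were called higher, 2 of them at least 2-fold, and 2 were not called. Among all expressed identifiers 15.7% were called higher and 1.86% higher at least 2-fold. D05G379200 had 946, 993 and 938 FPKM in PS-COOH and 593, 516 and 526 FPKM in CK (difference 0.82 ± 0.053). D05G379700 had 302, 308 and 310.3 FPKM in PS-COOH and 177, 169.5 and 165 FPKM in CK (difference 0.84 ± 0.042). D05G380000, the most abundant in PS-COOH, had 1264, 1337 and 1185 FPKM in PS-COOH and 831, 721 and 731 FPKM in CK (difference 0.73 ± 0.059). In these 3 the PS-COOH means were 1.76, 1.80 and 1.66 times the CK means.

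D05G379500, which lies between them, had 325, 329 and 327 FPKM in PS-COOH and 365, 323 and 318 FPKM in CK. The groups overlapped, and its difference of -0.03 ± 0.052 was not called, except under quantile normalization among the alternatives run (-0.15). D05G379400, at 1.62 ± 0.646 FPKM in PS-COOH and 1.44 ± 0.306 FPKM in CK, was not called either. D05G379600 was called higher at least 2-fold, with 111, 111 and 109 FPKM in PS-COOH and 45.6, 42.2 and 36.1 FPKM in CK and a difference of 1.40 ± 0.071. D05G379900 was too, at a much lower level, with 15.1, 16.8 and 14.6 FPKM in PS-COOH and 3.89, 4.21 and 2.60 FPKM in CK and a difference of 1.87 ± 0.13. D05G379800 averaged 47.8 ± 4.97 FPKM in PS-COOH and 32.6 ± 4.39 FPKM in CK. The PS-COOH means of D05G379600 and D05G379900 were 2.67 and 4.34 times their CK means. In the third part 11 of 23 members were not called, with differences of -0.16 to 0.31.

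**Figure D5:**
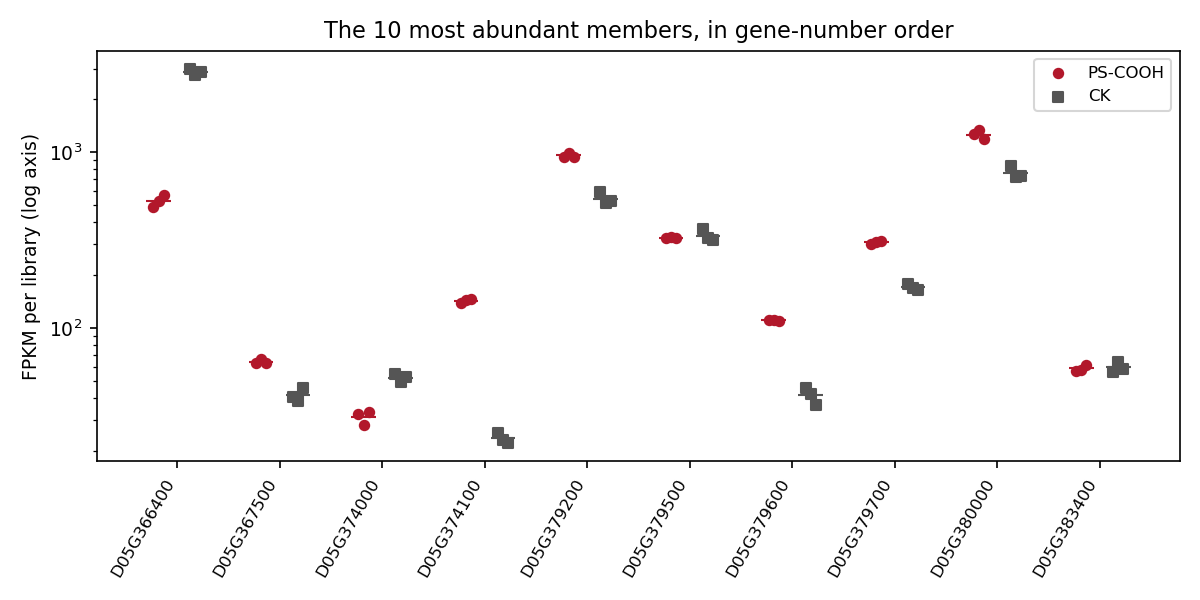
FPKM in each library of the 10 most abundant members, PS-COOH (red circles) beside CK (grey squares), in gene-number order on a logarithmic axis, with a line at each group mean. D05G366400 and D05G374000 are lower in PS-COOH, 6 genes are higher, and D05G379500 and D05G383400 have overlapping groups.

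The fourth part held fewer large differences. D05G380501, at 6.80 ± 0.577 FPKM in PS-COOH and 5.33 ± 0.197 FPKM in CK, was called higher. D05G381700, at 3.97 ± 0.260 FPKM in PS-COOH and 1.55 ± 0.439 FPKM in CK, was called higher as well. D05G383400 had 57.1, 57.6 and 61.3 FPKM in PS-COOH and 56.2, 63.7 and 58.4 FPKM in CK, with overlapping groups. Its neighbour D05G383500 was called higher at least 2-fold, with 12.2, 15.7 and 11.9 FPKM in PS-COOH and 4.46, 3.74 and 3.46 FPKM in CK and a difference of 1.54 ± 0.11. Calls were then lower in 4 members. D05G383766 averaged 1.09 ± 0.226 FPKM in PS-COOH and 1.79 ± 0.344 FPKM in CK, and D05G383800 averaged 1.47 ± 0.0209 FPKM in PS-COOH and 2.72 ± 0.228 FPKM in CK. D05G384000 averaged 4.46 ± 0.532 FPKM in PS-COOH and 6.05 ± 0.617 FPKM in CK, and D05G384200 averaged 5.08 ± 0.401 FPKM in PS-COOH and 6.56 ± 0.700 FPKM in CK. All 4 stayed expressed, and their groups did not overlap. D05G384700 averaged 12.3 ± 0.299 FPKM in PS-COOH and 8.58 ± 0.426 FPKM in CK and was called higher. D05G384800 averaged 25.3 ± 1.92 FPKM in PS-COOH and 29.0 ± 1.23 FPKM in CK and was called lower. The 11 members of this part that were not called had differences of -0.12 to 0.34.

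In the last part 22 of 29 members were not called, with differences of -0.20 to 0.30. The 4 called higher were D05G385200, D05G385500, D05G387600 and D05G387700. D05G385200 averaged 10.1 ± 0.150 FPKM in PS-COOH and 8.52 ± 0.170 FPKM in CK. D05G385500 averaged 7.20 ± 0.662 FPKM in PS-COOH and 4.11 ± 0.602 FPKM in CK. D05G387700 averaged 5.44 ± 0.771 FPKM in PS-COOH and 3.98 ± 0.160 FPKM in CK. D05G387600 came closest to 2-fold, with 2.04, 2.09 and 1.62 FPKM in PS-COOH and 0.989, 0.266 and 0.259 FPKM in CK and a difference of 0.99 ± 0.18. D05G387800, at 10.2 ± 1.21 FPKM in PS-COOH and 13.8 ± 0.758 FPKM in CK, was called lower. D05G388100 had nearly equal levels, 11.1, 11.4 and 12.4 FPKM in PS-COOH and 10.9, 11.9 and 11.8 FPKM in CK. The last 3 members were D05G388750, D05G388800 and D05G389001. D05G388750 had 34.5, 28.9 and 29.9 FPKM in PS-COOH and 41.1, 36.04 and 37.2 FPKM in CK and was called lower. D05G388800 had 29.1, 31.1 and 32.7 FPKM in PS-COOH and 32.1, 40.8 and 42.9 FPKM in CK. Its groups overlapped, and its call (difference -0.30 ± 0.092) was lost without PS-COOH replicate 1 (-0.26) or 2 (-0.31), without CK replicate 2 (-0.26) or 3 (-0.22), and with no filter. D05G389001 had 2.07, 3.24 and 2.59 FPKM in PS-COOH and 2.56, 2.94 and 1.99 FPKM in CK, with overlapping groups.

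Summed over the 136 members, the FPKM were 4640.3, 4806 and 4647 in the PS-COOH libraries and 6054, 5626 and 5745 in the CK libraries. D05G366400 alone decides that direction. Without it the sums were 4152, 4279 and 4078 in PS-COOH and 3088, 2859 and 2868 in CK. The groups did not overlap in either sum. Most of the gap without D05G366400 came from the 9 identifiers from D05G379200 to D05G380000. They summed to 3040 ± 112 FPKM in PS-COOH and 1897 ± 142 FPKM in CK. All identifiers of the whole table summed to 603559 ± 6072 FPKM in PS-COOH and 562920 ± 4830 FPKM in CK.

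Some identifiers carry numbers that do not end in 00. They were 24 of the 136 members, and 10 of the 24 (41.7%) were called at least 2-fold, against 16 of the 112 others (14.3%). On the rest of D05 the counts were 9 of 196 (4.59%) and 33 of 2131 (1.55%). What such numbers stand for is not given in the sources used here. These members were lower, with a median of 3.16 FPKM against 5.30 FPKM, and the part of level in this was not tested.

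The FPKM rule left out 139 of the 275 identifiers of the distal end. Of these, 56 were listed at 0 in all 6 libraries and 9 reached 1 FPKM in at least 1 library. A further 12 were listed at 0 in every PS-COOH library but not in every CK library, and 12 showed the reverse. The remaining 59 were above 0 in both groups. Just inside the FPKM threshold lay D05G385400, with 0.567, 1.03 and 1.03 FPKM in PS-COOH and 1.008, 0.559 and 0.548 FPKM in CK. D05G385900, also just inside, had 1.06, 1.013 and 1.17 FPKM in PS-COOH and 0.773, 0.586 and 0.698 FPKM in CK. Just outside lay D05G380600, with 1.22, 1.06 and 0.974 FPKM in PS-COOH and 0.631, 0.685 and 0.543 FPKM in CK. D05G382700, also just outside, had 0.896, 1.40 and 0.924 FPKM in PS-COOH and 1.05, 0.969 and 0.520 FPKM in CK.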

How the data were processed

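The authors deposited 1 table of FPKM values for 3 PS-COOH and 3 CK root libraries, which were grouped by title. HISAT2 and StringTie appear in the submitters' processing notes. The sources used here give neither genome build nor annotation, filters or the handling of reads with several matches. FPKM adjusts for transcript length and library total only, and without counts absolute depth is unknown. Ratios of values under 0.1 FPKM, which pile up at what 1 fragment is worth, gave relative depths of 1.06, 1.10 and 1.04 for PS-COOH and 1, 1 and 0.973 for CK. Each library had 63090 to 65242 identifiers above 0. A RefSeq table of 99454 cotton genes matched 0 identifiers.

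All 45258 identifiers reaching 1 FPKM in 3 libraries were fitted in limma 3.58.1 (R 4.3.3) on log2(FPKM + 1) with a trended prior and Benjamini-Hochberg adjustment. This step was tried on simulated data with differences planted only in genes above a minimum mean level. How well it finds differences at low FPKM was therefore not tested. Calls (adjusted p under 0.05) serve as labels, because members and lists were chosen with earlier results of these data known. Values for each library are given for members called with a difference of at least 1 in size, near silent in 1 group, among the 10 most abundant, first or last 3 in number order, most even in level (5 of at least 10 FPKM in every library) or at an edge of the rule. Other called members are given mostly by their means. Alternatives changed the pseudocount, filter, scaling, prior, block or set of libraries. Plots used matplotlib 3.10.9.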

Additional observations from a re-analysis of the deposited data

How the results depend on the processing

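Of the 5 member counts (called higher, called lower, each at least 2-fold, and groups not overlapping), none moved by over 1.5 times except under the 5 FPKM filter. That filter left 74 members, of which 18 were called higher, 20 lower, 6 higher at least 2-fold and 3 lower at least 2-fold. Groups did not overlap in 40. Of the 26 members called at least 2-fold, only 9 passed this filter, and these 9 stayed at least 2-fold. All 26 members called at least 2-fold stayed called in every alternative that included them, with no change of sign. Without 1 library at a time, 31 to 33 were called higher and 25 to 30 lower, 13 or 14 higher and 12 or 13 lower at least 2-fold, and 78 to 89 had no overlap. A pseudocount of 0.5 gave 17 higher and 13 lower at least 2-fold, and 0.1 gave 18 and 14. Same-numbered libraries did not deviate together (correlations of -0.0726, -0.0611 and -0.00731 after removing group means). With 3 libraries per group this cannot exclude that the numbers mark pairs, and the labels do not say. The fit with the replicate block called 33 higher and 30 lower, 13 of each at least 2-fold. Quantile normalization gave 33 higher and 34 lower, and its overlap count was not run. Values near 0 FPKM are the least certain, since only relative depth is known.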
